A study of Homo sapiens with 34 samples.

Results

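In hTERT-RPE1 cells that carry the overexpression construct of CCND1, mRNA levels 720 and 1440 min into a uridine chase were set against those in its first 45 min. The 10 libraries were chosen by title, the 4 collected at 720 and 1440 min (late) and the 6 collected at 0, 10, 20 and 45 min (early), of 34 libraries in the series. The cells are an immortalised line of the human retinal pigment epithelium. Doxycycline induces an shRNA that targets the CCND1 3′ UTR in all of the groups and, in this line alone, also a FLAG-tagged CCND1 allele which that shRNA spares, delivered by lentivirus under an inducible promoter (methods of the study). The lines were polyclonal for their CCND1 expression. All groups received 0.5 µg/mL doxycycline throughout. From day 4 of induction the late and early cells took up 10 µM 4-thiouridine (s4U), a uridine analog that marks new RNA, during 24 h in which the medium was exchanged every 3 h, and were then moved to medium with 1 mM uridine. The 2 unlabelled libraries of the line, collected at 0 min, had 10 µM uridine instead. The 10 libraries of the knockdown line (4 late, 6 early), which carries the shRNA without the allele, were treated in the same way and serve for comparison. Each line was sampled in 2 time courses, numbered in the titles, and whether these were separate cultures is not given in the labels, so p-values measure only the spread between libraries. Late and early libraries differ in the hours since s4U was removed, in the hours since the last medium change that the labels give and in the days of induction, and these cannot be told apart.

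SLAM-seq is usually read for its T>C conversions, which count labelled copies of a transcript. The total read count of the same libraries gives the level of the mRNA, and a comparison of late with early libraries asks whether those levels stayed constant over the chase. Cells in culture change their medium as they grow, and genes of lipid synthesis, of secretory protein folding and of the actin cytoskeleton are known to follow sterol supply, the load of the endoplasmic reticulum and serum factors. In sterol synthesis the transcription factor encoded by SREBF2 is released from the membrane when cholesterol is low and drives the enzymes of the pathway, while the related factor of SREBF1 acts more on fatty acid synthesis.

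The 10 libraries held 21780620 to 42843003 reads in annotated 3′ UTRs, and 10688 to 10913 genes at 1 CPM or more (CPM, counts scaled to a common library size). The share of covered T bases read as C was 0.0657% to 0.231% in the late and 0.892% to 0.963% in the early libraries. The unlabelled library of course 1 held 14712332 reads, the fewest of the 34, and 13.4% of them multimapped, the largest share. That of course 2 held 32063172 reads with 9.54% multimapped. How far this shaped the levels in the unlabelled library of course 1, given below for single genes, was not tested. Pairs of libraries of the same time differed far beyond counting error (chi-square per degree of freedom of 36.7, 94.0 and 40.8 at 0, 20 and 1440 min, and 393 at 720 min). The 720 min library of course 1 stood apart. Over 8350 genes its log2 CPM correlated at 0.856 with the mean of the other libraries of the line, against 0.968 to 0.989 for the remaining 9, and its deviation correlated at -0.497 with the GC content of the 3′ UTR. The comparison was therefore made with all 10 libraries and again without that one. The markers fixed for the line fit it in part. Vimentin (VIM, 6328 to 8496 CPM late and 6611 to 8421 CPM early) and the eye field factor PAX6 (63.5 to 110 CPM late and 99.4 to 118 CPM early) were present, while the visual cycle genes RPE65 and RLBP1 and the pigment genes TYR and TYRP1 were at or near 0, as were the epithelial CDH1 and EPCAM, the blood cell marker PTPRC and the endothelial VWF. Of 12 markers of the line tested in the 9 libraries, the keratin KRT18 rose by 0.40 on the log2 scale and the cadherin CDH2 fell by 0.39 (both with an adjusted p of 0.041, and of 0.25 and 0.68 with 10 libraries). The keratin KRT8 held 66.8 to 256 CPM late and 233 to 349 CPM early (-0.31 in the 9 libraries, adjusted p of 0.24). The part of these shifts in the results was not tested. Summed over 10 epithelial markers the level was 0.767 to 5.58 CPM late and 1.65 to 4.96 CPM early, over 8 of blood cells 13.1 to 24.3 and 17.9 to 33.4 CPM, nearly all of it the lysosomal CD68, and over 6 of endothelium 1.22 to 1.68 and 0.48 to 3.87 CPM.

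CCND1, whose endogenous 3′ UTR (hg38 chromosome 11, 69651283 to 69654474) is the target of the shRNA, held 40.3 and 82.4 CPM at 720 min and 50.7 and 52.1 CPM at 1440 min (courses 1 and 2), against 47.5, 55.3 and 67.0 CPM as the lowest, median and highest early value. The groups overlapped, with a log2 change of 0.03 (standard error, SE, 0.19; edgeR adjusted p of 0.96). The introduced allele is not counted where it lacks this interval, so the overexpression itself was not checked here.

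With all 10 libraries 20 of 11680 genes changed between late and early chase, 14 higher and 6 lower (0.171%, 0.12% and 0.0514% of genes tested, edgeR quasi-likelihood test, Benjamini-Hochberg adjusted p under 0.05). At an unadjusted p under 0.05 there were 1667. The genes that rose include 3 of lipid metabolism (SCD, ACSL3, G0S2), the chaperone HSPA5, the chemokine CXCL8, and proteins of the cell surface and matrix (ITGA6, ANTXR2, DCBLD2, COL13A1, TGM2, ESM1). Those that fell include smooth muscle actin (ACTA2), the cold-inducible RNA-binding protein CIRBP and the kinase SGK1. In all 20 the 4 late libraries lay wholly outside the range of the 6 early ones. Over all genes tested, all 4 late libraries lay above all 6 early ones for 2.46% and below them for 2.5%. Each of the 20 kept its direction in every refit that could measure it, and HSPA5 could not be measured without multimapped intervals.

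**Figure D1:**
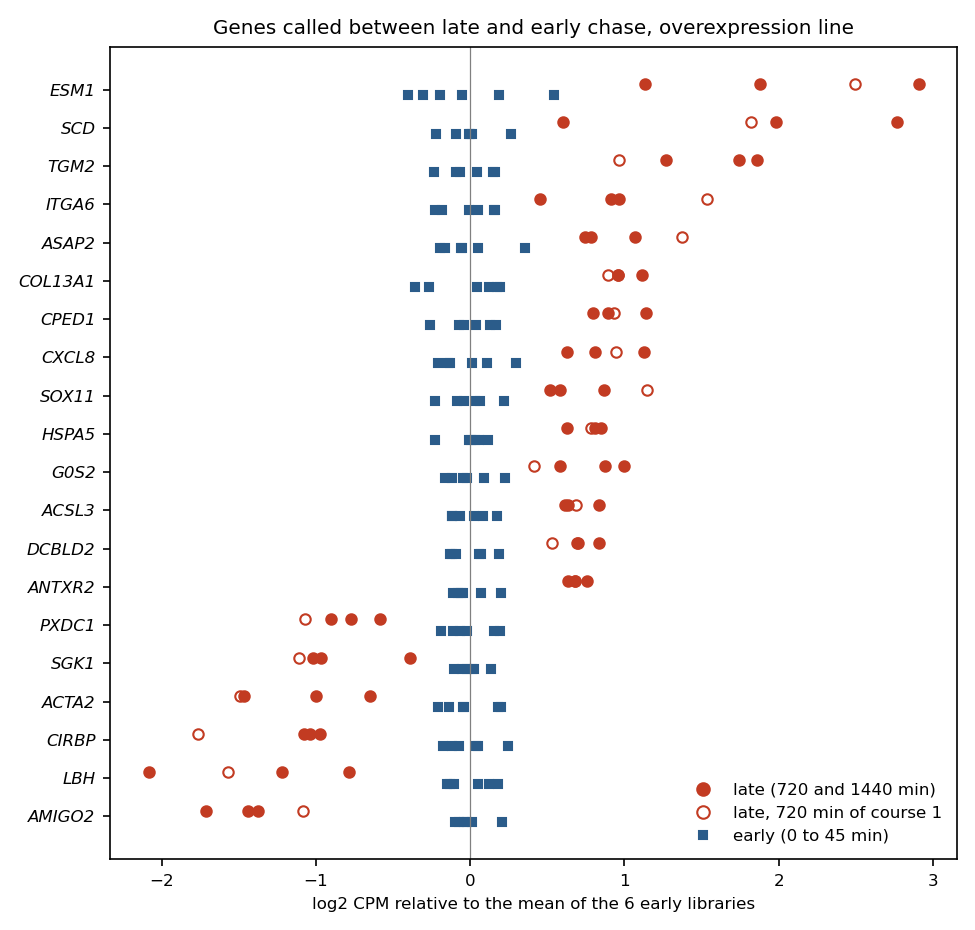
Level of each of the 20 called genes in each library of the overexpression line, as log2 CPM relative to the mean of the early libraries (horizontal), with a row per gene. Red circles are the 4 late libraries (open, 720 min of course 1) and blue squares the 6 early ones, and in every row the late libraries lie to one side of all early ones.

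Without the 720 min library of course 1 the test called 188 of 11868 genes, 110 higher and 78 lower (1.58%, 0.927% and 0.657%), and 1705 at an unadjusted p under 0.05. All 20 genes of the full comparison were among them. This one library was 1 of 4 late ones, and leaving out any other single library gave 6 to 24 calls. The median absolute log2 change over all genes tested was 0.249 with the library and 0.193 without it. Below, a log2 change is that of the 10 libraries unless "9 libraries" is stated, and genes called in the 9 libraries were chosen for naming after their values were seen, by the rule used for the 10.

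**Figure D2:**
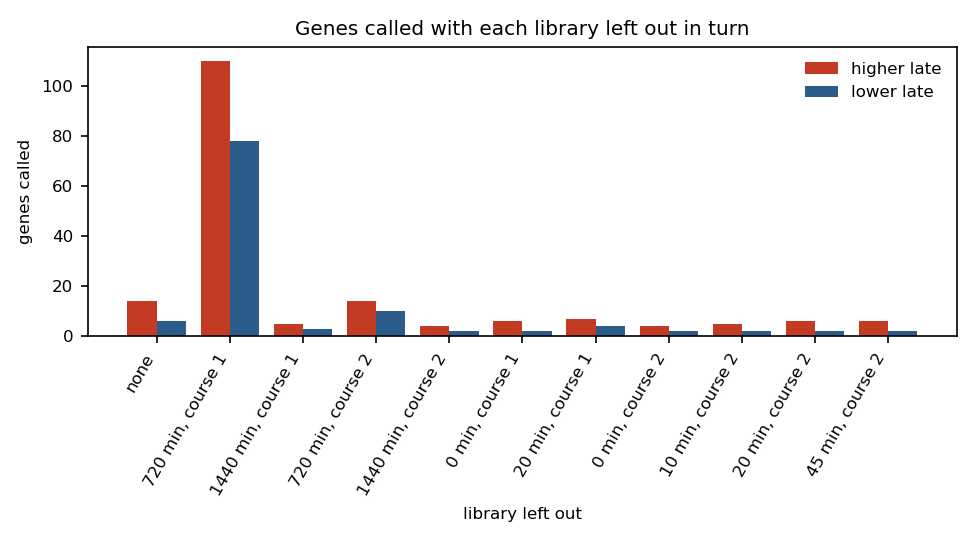
Number of genes called as higher (red) or lower (blue) in the late libraries (vertical) with all 10 libraries ("none") and with each library left out in turn (horizontal). Without the 720 min library of course 1 the bars reach 110 and 78, and 4 to 14 and 2 to 10 without any other.

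Of the genes of fatty acid synthesis 2 of 15 rose with 10 libraries and 4 of 15 with 9, and of those of sterol synthesis and uptake 0 and 3 of 25, and these 2 lists had the highest medians in the 9 libraries. SCD (chromosome 10, 100360934 to 100364834), the desaturase that makes oleate from stearate, held 122 and 52.6 CPM at 720 min and 236 and 137 CPM at 1440 min in courses 1 and 2, against 29.7, 34.5 and 41.6 CPM as the lowest, median and highest early value. No late library overlapped the early range, and within each course the 1440 min library was the higher one. The log2 change was 1.99 (SE 0.28, adjusted p of 0.010), a fitted fold of 3.97. At 360 min SCD was still at 39.3 and 30.9 CPM, inside the early range. The unlabelled libraries, collected with the 0 min ones, held 78.8 and 42.0 CPM, the first well above the early range and the second just above it.

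ACSL3, which activates long-chain fatty acids for lipid synthesis, averaged 158 ± 11.3 CPM late and 97.4 ± 8.06 CPM early (SD, n = 4 and 6), a log2 change of 0.70 (SE 0.11, adjusted p of 0.025). G0S2, an inhibitor of the triglyceride lipase of lipid droplets, averaged 714 ± 131 CPM late and 429 ± 43.9 CPM early (log2 change of 0.74, adjusted p of 0.047). In the 9 libraries 4 of 15 fatty acid genes rose and 0 fell. SCD and ACSL3 were joined by ACACA, the carboxylase that commits acetyl-CoA to fatty acid synthesis, at 0.74 (adjusted p of 0.0096). MID1IP1, which promotes the polymerisation of that carboxylase, also rose, at 0.89 (adjusted p of 0.0059). ACACA held 29.0 CPM at 720 min in course 1 and 46.1 to 51.2 CPM in the other late libraries, against 22.7 to 32.8 CPM early. Its unlabelled libraries, collected at 0 min, held 60.9 and 42.4 CPM, both above the early range. Those of MID1IP1 held 46.9 and 29.3 CPM, against 22.4 to 31.8 CPM early. The median of the 15 was 0.31 in the 10 and 0.44 in the 9 libraries, against 0.00 and -0.01 over all genes tested. In the 9 libraries FASN, the fatty acid synthase, was at 0.51 (adjusted p of 0.091), the desaturases FADS1 and FADS2 at 0.44 and 0.57 (0.087 and 0.077), and SREBF1 at 1.26 (0.060). ACLY, which makes cytosolic acetyl-CoA from citrate, was at 0.03 and ACSS2, which makes it from acetate, at 0.10.

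In the sterol pathway, calls were made in the 9 libraries alone. SREBF2 (chromosome 22, 41905440 to 41907308) was at 27.5 and 28.8 CPM at 720 min and 62.6 and 35.6 CPM at 1440 min, against 18.4, 24.4 and 26.3 CPM as the lowest, median and highest early value, so that the groups did not overlap. FDFT1, the squalene synthase, was at 145 and 109 CPM at 720 min and 172 CPM in both libraries at 1440 min, against 96.7 to 117 CPM early. Both rose in the 9 libraries, at 0.84 and 0.53 (adjusted p of 0.034 and 0.045). The unlabelled libraries of courses 1 and 2, collected at 0 min, held 50.5 and 26.3 CPM of SREBF2 and 127 and 114 CPM of FDFT1. In both genes that of course 1 lay above the early range and that of course 2 did not. Of 25 genes of sterol synthesis and uptake 0 passed in the 10 libraries and 3 rose in the 9, and 22 and 20 lay above 0 (median of 0.39 and 0.42). At an unadjusted p under 0.05, 11 of the 25 were higher and 0 lower with 10 libraries, against 1020 higher and 647 lower of 11680 over all genes. HMGCS1, an early synthase of the pathway, was at 0.59, and INSIG1, which retains the sterol-sensing complex in the endoplasmic reticulum, at 0.70 in the 9 libraries (adjusted p of 0.19 and 0.18). In course 2 at 720 min HMGCS1 (19.1 CPM) lay within its early range of 14.8 to 26.2 CPM and INSIG1 (24.2 CPM) just below its own of 24.3 to 36.9 CPM, while both 1440 min libraries lay above these ranges. Unlabelled, they were at 42.0 and 19.0 CPM (HMGCS1) and 47.2 and 30.9 CPM (INSIG1) in courses 1 and 2.

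The promoters of the lipid genes were searched, as a description, for the core of the sterol element to which these factors bind (TCACNCCAC, on both strands, from 250 bases before to 50 after the RefSeq start, GRCh38.p14). It stood in the windows of SREBF2 and MID1IP1 and not in those of SCD, ACSL3 and ACACA, and 1.15% of 27305 promoters hold it. FDFT1 was not matched. For the chaperone and actin genes described next, the endoplasmic reticulum stress element (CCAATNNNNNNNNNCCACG), held by 0.0806% of promoters, stood in that of HSPA5 and not in that of MANF. The CArG box, to which serum response factor binds, was searched only in its exact form (CCWWWWWWGG, W being A or T), held by 1.29% of promoters. That form stood in the window of ACTG1 and not in those of ACTA2, TPM1, ZYX, CTGF and THBS1, with MYL9 not matched. A box or element that departs from the letters searched or lies outside the window would be missed. Absence of the sterol element, the stress element or the CArG box from a promoter is therefore not shown. The 4 stretches are shown on the strand of their gene with the match in capitals, that of MID1IP1 being the reverse complement.
SREBF2, chr22:41832962-41832991: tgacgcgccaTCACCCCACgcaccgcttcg
MID1IP1, chrX:38801409-38801438: aggggcggtgGTGGGGTGAttccaagggcc
HSPA5, chr9:125241385-125241414: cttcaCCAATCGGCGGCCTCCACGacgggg
ACTG1, chr17:81512874-81512903: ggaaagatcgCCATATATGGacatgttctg

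Chaperones of the endoplasmic reticulum had a raised median late, and 1 of them passed with all libraries. HSPA5 (chromosome 9, 125234853 to 125236591), which encodes BiP, the main chaperone of that compartment, held 1272 and 1297 CPM at 720 min and 1332 and 1142 CPM at 1440 min, against 633, 750 and 802 CPM as the lowest, median and highest early value. The groups lay well apart, and the log2 change was 0.77 (SE 0.11, adjusted p of 0.010). Of its reads 18% map to several places. The unlabelled libraries held 1030 and 956 CPM, above all 6 early ones. Of 23 chaperone and stress genes 1 rose in the 10 libraries and 2 in the 9, with a median of 0.36 and 0.28, and 0 fell. The second was MANF, a protein secreted under stress of this compartment, at 0.60 in the 9 libraries (adjusted p of 0.028). At an unadjusted p under 0.05, 11 were higher and 1 lower in the 10 libraries. HSP90B1, the HSP90 form of the compartment, held 924 CPM in the 720 min library of course 1 and 518 to 639 CPM in the other late ones, against 398 to 523 CPM early, and its unlabelled libraries held 897 and 594 CPM. Of 20 cytosolic heat shock genes 0 passed in either form, with 3 higher and 0 lower at an unadjusted p under 0.05 in the 10 libraries.

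The steepest rise was that of a secreted protein. ESM1 (chromosome 5, 54977864 to 54979331), a secreted proteoglycan, held 54.4 and 72.5 CPM at 720 min and 21.2 and 35.6 CPM at 1440 min, against 7.31, 8.89 and 14.1 CPM as the lowest, median and highest early value. It was above the early range in every late library and lower at 1440 than at 720 min in both courses, the opposite of SCD. The log2 change was 2.25 (SE 0.29, adjusted p of 0.0087). At 180 min it was already at 16.8 and 23.8 CPM and at 360 min at 30.4 and 35.4 CPM. The unlabelled libraries held 25.7 and 9.72 CPM.

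TGM2 (chromosome 20, 38127387 to 38130218), transglutaminase 2, which cross-links matrix proteins and is induced by retinoic acid, held 110 and 136 CPM at 720 min and 205 and 189 CPM at 1440 min, against 47.9, 56.1 and 63.1 CPM as the lowest, median and highest early value (log2 change of 1.51, SE 0.17, adjusted p of 0.0021). The unlabelled libraries, at 114 and 88.1 CPM, also lay above the early range. Of 14 retinoid pathway genes TGM2 alone rose in the 10 libraries, and in the 9 also DHRS3, which reduces retinaldehyde, at 2.05 (adjusted p of 0.037), with an average of only 8.57 CPM in late and 2.53 CPM in early libraries.

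CXCL8 (chromosome 4, 73742465 to 73743716), the neutrophil chemokine interleukin-8, was at 227 and 182 CPM at 720 min and 207 and 258 CPM at 1440 min, against 102, 114 and 145 CPM as the lowest, median and highest early value (log2 change of 0.89, SE 0.14, adjusted p of 0.021). In course 2 it was higher still at 180 and 360 min, at 330 and 380 CPM, and in course 1 it was then at 221 and 195 CPM. Of 25 genes of cytokines and NF-kB feedback it alone rose in the 10 libraries, with IL1B, the cytokine interleukin-1 beta, added at 2.01 in the 9 (adjusted p of 0.0017). IL1B was a gene of low level, with an average under 10 CPM over the 10 libraries. NFKBIA and TNFAIP3, the feedback inhibitors of NF-kB, were at -0.30 and -0.15 in the 9 libraries (adjusted p of 0.37 and 0.85).

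**Figure D3:**
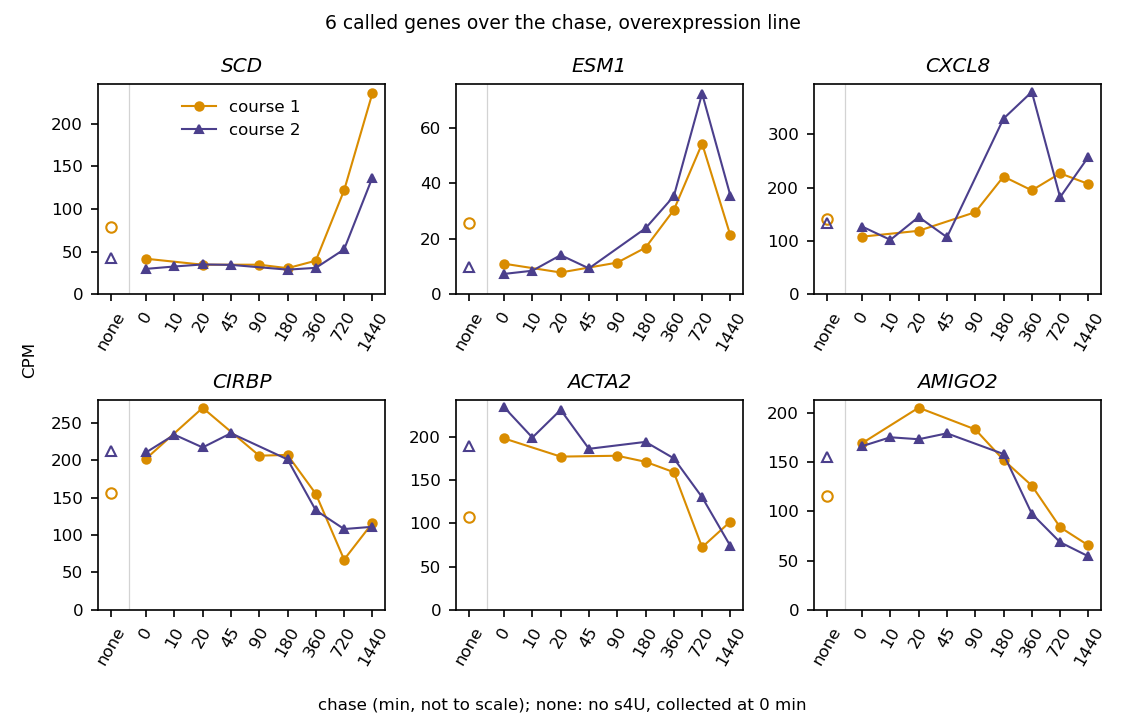
CPM (vertical) of 6 called genes at each chase time in min (horizontal, not to scale), with a line per time course of the overexpression line and open symbols at the left for its unlabelled libraries. SCD climbs after 360 min to 236 and 137 CPM at 1440 min, ESM1 peaks at 720 min at 54.4 and 72.5 CPM, and AMIGO2 declines to 65.4 and 54.3 CPM.

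ITGA6, the laminin-binding integrin chain, averaged 98.4 ± 31.3 CPM late and 48.6 ± 5.46 CPM early (log2 change of 1.03, adjusted p of 0.047), with 141 CPM in the 720 min library of course 1 as the highest value, and at 0.79 without it. COL13A1, a transmembrane collagen, held 107 to 125 CPM late and 45.0 to 65.9 CPM early (0.99, adjusted p of 0.010), with both unlabelled libraries above the early range at 91.7 and 94.7 CPM. ANTXR2, a collagen-binding receptor also used by anthrax toxin, averaged 149 ± 5.52 CPM late and 92.2 ± 7.61 CPM early (0.69, adjusted p of 0.023), after 177 and 172 CPM at 360 min. Its unlabelled libraries held 133 and 113 CPM, above its early range of 85.5 to 106 CPM. DCBLD2, a membrane protein, was at 0.70 and ASAP2, a GTPase-activating protein for Arf, at 1.02 (adjusted p of 0.026 and 0.021). SOX11, a transcription factor of neural and eye development, averaged 127 ± 26.2 CPM late and 72.7 ± 7.66 CPM early (0.81), and CPED1 17.7 ± 1.83 and 9.17 ± 0.963 CPM (0.95), both with an adjusted p of 0.047. The unlabelled libraries held 90.9 and 95.4 CPM of SOX11, above its early range of 62.0 to 84.7 CPM. With the course as a block ITGA6, G0S2, SOX11 and CPED1 had an adjusted p of 0.054, 0.054, 0.059 and 0.056 and were not called.

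In the 9 libraries the steepest further rises of genes at 10 CPM or more were in PLAT and ITGA2. ITGA2, the collagen-binding integrin chain, held 31.1 CPM at 720 min (course 2) and 24.1 and 20.1 CPM at 1440 min, against 6.68 to 15.9 CPM early (1.35, SE 0.24, adjusted p of 0.0059). Next came DDIT4, an inhibitor of mTORC1, at 1.30, PTPRB, a receptor phosphatase, at 1.16, SFRP1, a secreted Wnt antagonist, at 1.10, and PNRC1, a nuclear receptor coactivator, at 1.09. The ERK-responsive factor ETV1 was also at 1.09 and PPARA, the receptor that drives fatty acid oxidation, at 1.04. DDIT4 and PNRC1 both had an adjusted p of 0.034 in the 9 libraries, and of 0.28 and 0.18 with 10. Their groups overlapped even in the 9 libraries. DDIT4 held 12.6 to 21.9 CPM late and 3.74 to 13.8 CPM early, and PNRC1 16.6 to 48.7 and 11.4 to 21.0 CPM. SFRP1 shows the weight of one library, with 40.7 CPM at 720 min in course 1 against 102, 107 and 142 CPM in the other late ones and 44.4 to 72.5 CPM early. PLAU, the urokinase, rose with PLAT in the 9 libraries, at 0.82 (adjusted p of 0.0078). Of 20 matrix proteases and inhibitors these 2 were called higher and 1, the gelatinase MMP2, lower, at -0.82 (adjusted p of 0.0041).

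The genes that fell were led by AMIGO2 (chromosome 12, 47075707 to 47077433), a cell adhesion protein, with 83.8 and 68.6 CPM at 720 min and 65.4 and 54.3 CPM at 1440 min, against 166, 174 and 205 CPM as the lowest, median and highest early value. The log2 change was -1.38 (SE 0.14, adjusted p of 0.0018), and the level was already lower at 360 min, at 126 and 97.5 CPM. The unlabelled libraries, collected at 0 min, held 115 and 155 CPM and also lay below all early ones. LBH, a transcriptional cofactor, held 32.5 and 22.8 CPM at 720 min and 56.1 and 41.5 CPM at 1440 min, against 87.0 to 110 CPM early (-1.33, adjusted p of 0.021), and was lower at 720 than at 1440 min in both courses. SGK1, a kinase induced by serum and glucocorticoids, averaged 73.1 ± 18.1 CPM late and 131 ± 7.47 CPM early (-0.83, adjusted p of 0.047), and PXDC1 58.4 ± 8.29 and 103 ± 10.8 CPM (-0.82, adjusted p of 0.029). Unlabelled libraries of courses 1 and 2 held 67.0 and 101 CPM of LBH, 75.0 and 125 of SGK1 and 70.5 and 111 of PXDC1. Those of course 1 lay below the early ranges and those of course 2 within them.

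CIRBP (chromosome 19, 1271551 to 1274880), an RNA-binding protein induced by mild cold, held 67.2 and 108 CPM at 720 min and 116 and 111 CPM at 1440 min, against 202, 225 and 270 CPM as the lowest, median and highest early value (log2 change of -1.17, SE 0.16, adjusted p of 0.010). At 360 min it was at 155 and 133 CPM. Its unlabelled libraries held 156 and 212 CPM, the first below the early range and the second within it. RBM3, the other well-known cold-inducible RNA-binding protein, held 427 and 250 CPM at 720 min and 282 and 254 CPM at 1440 min, against 431 to 649 CPM early. It was at -0.73 in the 10 libraries (adjusted p of 0.10) and fell by 0.95 in the 9 (SE 0.12, adjusted p of 2.5e-04).

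Genes of the actin cytoskeleton, many of them targets of serum response factor, had a lower median late. ACTA2 (chromosome 10, 88935074 to 88935222) held 72.4 and 130 CPM at 720 min and 102 and 73.8 CPM at 1440 min, against 177, 199 and 234 CPM as the lowest, median and highest early value (-1.11, SE 0.18, adjusted p of 0.021). The unlabelled library of course 1, at 107 CPM, lay below the early range and that of course 2, at 189 CPM, within it. Of 33 genes in the list 1 fell in the 10 libraries and 5 in the 9, with 6 and 4 above 0, a median of -0.34 and -0.24, and 0 called higher. The others were the tropomyosin TPM1 at -0.73, the myosin light chain MYL9 at -0.57, zyxin (ZYX), a protein of focal adhesions, at -0.51, and the cytoplasmic actin ACTG1 at -0.35 in the 9 libraries (adjusted p of 2.5e-04, 0.0078, 0.034 and 0.031). TPM1 was at 2656 CPM in the 720 min library of course 1 and at 1202 to 1470 CPM in the other late ones, against 2057 to 2495 CPM early, and its unlabelled libraries held 3375 and 2301 CPM. ACTG1 held 6803 to 9714 CPM late and 10463 to 12998 CPM early, so that its groups did not overlap.

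Among the genes that fell in the 9 libraries were 4 of secreted proteins, THBS1, EDN1, COL1A1 and CTGF, named together after their values were seen. THBS1 (chromosome 15, 39595370 to 39599466), the matrix protein thrombospondin 1, held 280 and 149 CPM at 720 min and 172 and 127 CPM at 1440 min, against 310, 345 and 356 CPM as the lowest, median and highest early value. It fell by 1.19 in the 9 libraries (SE 0.11, adjusted p of 6.5e-06), and in the 10 it was at -0.90 (adjusted p of 0.078). EDN1, the vasoconstrictor endothelin 1, held 60.1 CPM in the 720 min library of course 1 and 16.3 to 35.0 CPM in the other late ones, against 56.5 to 94.7 CPM early (-1.52 in the 9, adjusted p of 6.8e-04). COL1A1, a chain of type I collagen, was at -0.93 (adjusted p of 0.023) and CTGF, a matricellular protein, at -0.64 (adjusted p of 0.0085) in the 9 libraries, with the late libraries of both below all early ones in either form. Of 26 genes of the TGF-beta and BMP response 0 passed in the 10 libraries and 3 fell in the 9 (median of -0.18), namely the inhibitory SMAD7 at -1.10, the BMP antagonist GREM1 at -0.63 and the matrix protein TGFBI at -0.47. SMAD7 was highest of all late libraries at 720 min in course 1, at 42.7 CPM, against 8.95 to 20.9 CPM in the others and 22.1 to 38.5 CPM early. Of 29 collagen and matrix genes 2 rose (COL12A1 and HSPG2, at 0.49 and 0.46) and 3 fell in the 9 libraries, TGFBI being in both lists.

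Stress genes gave a mixed picture. In the 9 libraries SLC7A11 and SLC3A2, which together form the cystine transporter, fell by 0.72 and 0.67 (adjusted p of 0.0059 and 0.016), while DDIT4 of the same list of 25 amino acid response genes rose. CDKN1A and GADD45A, p53 targets that restrain the cell cycle, fell by 0.50 and 0.75 (adjusted p of 0.027 and 0.0091), 2 of 27 in their list. CDKN1A held 63.7 to 220 CPM in the late libraries and 241 to 305 CPM in the early ones. Its unlabelled libraries, collected at 0 min, held 125 and 183 CPM, also below all early ones. GADD45A held 240 CPM in the 720 min library of course 1 and 67.5 to 74.1 CPM in the other late ones, against 87.1 to 151 CPM early, and the unlabelled library of course 1 held 241 CPM. The autophagy receptor SQSTM1 fell by 0.54 (adjusted p of 0.011).

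Cell cycle lists had no gene called. Of 50 genes in the list of DNA replication and G1/S 0 passed in either form (median of 0.00 and -0.04), of 41 mitosis genes 0 (median of -0.10 and -0.09), and of 77 cytosolic ribosomal protein genes 0, with 24 and 6 above 0 (median of -0.13 and -0.16). At an unadjusted p under 0.05 in the 10 libraries the counts higher and lower were 1 and 0 for replication, 0 and 3 for mitosis and 0 and 11 for ribosomal proteins. Over all 11680 genes tested they were 1020 and 647. In the 9 libraries they were 3 and 1 for replication, 1 and 3 for mitosis and 0 and 21 for ribosomal proteins. Over all 11868 genes tested in the 9 libraries they were 880 and 825. For ribosomal proteins in the knockdown line they were 0 and 33, with 4 of 77 above 0. Over all 11875 genes tested there, 1398 were higher and 1369 lower at that threshold. Of 55 nuclear genes of oxidative phosphorylation 0 passed in either form (median of -0.24 and -0.13), and likewise of 43 lysosome genes (median of -0.11 and -0.12), with 1 higher and 6 lower of the one and 1 higher and 4 lower of the other at an unadjusted p under 0.05 in the 10 libraries. Of 37 immediate early and serum response genes 0 passed in the 10 libraries (median of -0.31), and in the 9 PHLDA1, a target of ERK signalling, rose by 0.71 on the log2 scale and CTGF fell (median of -0.17). EGR1 and FOS, both immediate early factors, were at -2.98 and -2.64 in the 9 libraries with an adjusted p of 0.092 and 0.16.

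**Figure D4:**
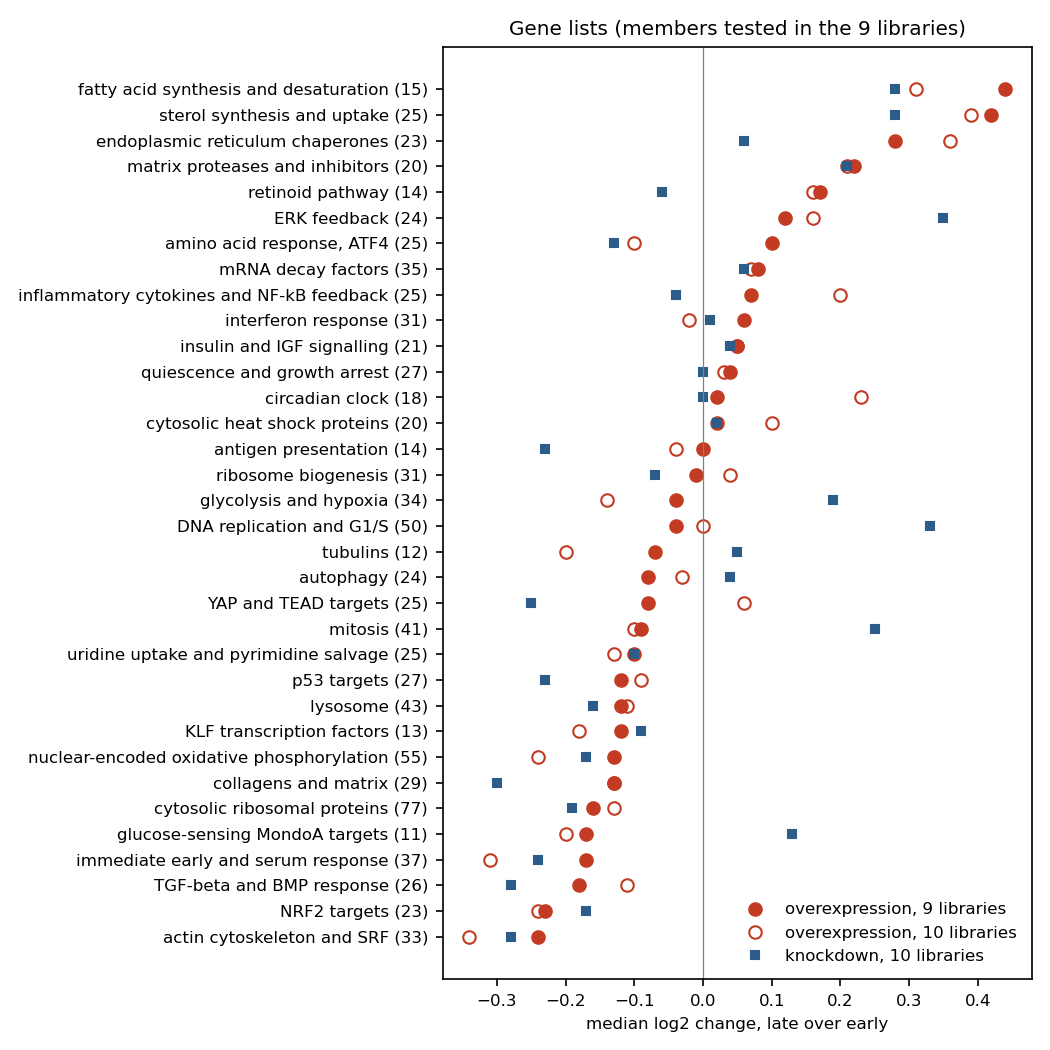
Median log2 change, late over early (horizontal), of the members of each gene list (a row each, with the number tested in the 9 libraries), for the overexpression line with 9 (filled red) and 10 libraries (open red) and for the knockdown line (blue). With 9 libraries fatty acid and sterol synthesis lie at 0.44 and 0.42 and the actin cytoskeleton at -0.24.

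How fast a gene loses its label was not used in the comparison of levels. The label left, the T>C rate per covered T minus that of the unlabelled library as a percentage of its value at 0 min, had a median at 360 min of 39.5% over 98 genes called higher and 37.0% over 76 called lower in the 9 libraries, against 35.9% over 8418 genes tested. With 10 libraries it was 33.8% over the 14 called higher and 14.3% over the 6 called lower. No test was made. Among the genes that rose, the median of the 2 courses at 360 min ran widely, with 6.43% for ESM1, 9.72% for CXCL8 and 58.4% for TGM2. Among those that fell it was 4.78% for SGK1, 8.85% for AMIGO2 and 63.7% for CIRBP, and for ACTA2 101% was left. SCD stood at 132% and 115% at 180 and 360 min, above its own rate at 0 min. The genes called higher had a median 3′ UTR GC content of 35.4% and those called lower one of 45.4% with 10 libraries, against 42.3% over all tested, and 40.8% and 43.9% with 9. With a GC term in the fit of all 10 libraries 14 of the 20 were called, and ACSL3, ANTXR2, CPED1, CXCL8, DCBLD2 and PXDC1 had an adjusted p of 0.053 to 0.085.

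The knockdown line, which shares no library with the overexpression line, had more genes called. Late over early chase called 1048 of 11875 genes there (8.83%), and 18 of the 20 genes of the overexpression line were among them, each in the same direction (90.0% of the one list and 1.72% of the other). Of the 188 genes of the 9 libraries 128 were among them (68.1% and 12.2%), again all in the same direction. HSPA5 and CPED1 were the 2 not called, at 0.34 and 0.63 in the knockdown line (adjusted p of 0.056 and 0.050). In the knockdown line 13 of 50 replication and 12 of 41 mitosis genes rose, against 0 of each in the overexpression line, and the difference was tested gene by gene, not for the lists.

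The difference of the change between the lines was called for 1 of 12307 genes (0.00813%). This was PLAT (chromosome 8, 42175233 to 42175992), the tissue plasminogen activator, which held 7.79 and 27.0 CPM at 720 min and 32.7 and 23.2 CPM at 1440 min in the overexpression line, against 5.23, 10.5 and 12.8 CPM as the lowest, median and highest early value. In the knockdown line it held 394 and 550 CPM at 720 min and 372 and 682 CPM at 1440 min, against 15.9 to 29.2 CPM early. Its log2 change was 1.23 in the overexpression line (1.51 in the 9 libraries, adjusted p of 0.0010) and 4.32 in the knockdown line, a difference of -3.09 (SE 0.38, adjusted p of 2.1e-04). SCD, at 1.99 and 1.01, had a difference of 0.99 (SE 0.40, adjusted p of 0.57), and CXCL8, at 0.89 and 2.01, one of -1.11 (adjusted p of 0.45).

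Without the 720 min library of overexpression course 1 the difference was called for 7 genes. Besides PLAT these were RRM2, the ribonucleotide reductase subunit, with 587 to 643 CPM late and 551 to 674 CPM early in the overexpression line, against 332 to 437 CPM late and 199 to 235 CPM early in the knockdown line, a difference of -0.71 (adjusted p of 0.038). The DNA repair gene BARD1 differed by -0.79 and FAM111B by -1.20. The IGF-binding protein IGFBP3 was called in the same direction, with log2 changes of -0.48 in the overexpression and 0.51 in the knockdown line. In the other direction OXTR, the oxytocin receptor, which was lower late by a log2 change of -0.42 in the overexpression and -1.15 in the knockdown line, differed by 0.73 and ARHGEF25, a guanine nucleotide exchange factor, by 1.61, with log2 changes of 1.07 in the overexpression and -0.55 in the knockdown line.

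**Figure D5:**
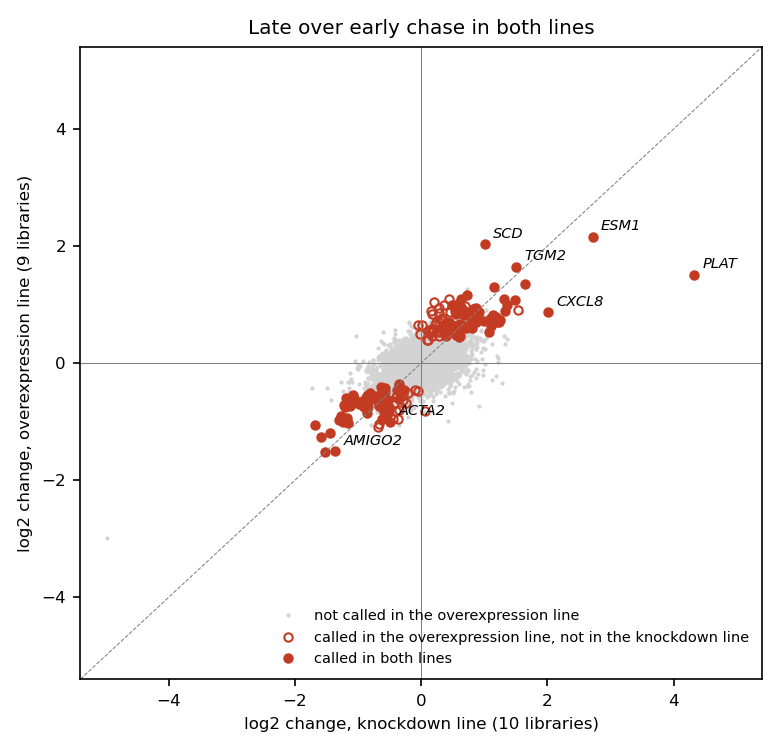
Log2 change, late over early, of each gene with at least 10 CPM in the 10 libraries, in the overexpression line with 9 libraries (vertical) and in the knockdown line (horizontal), with genes called in both lines in filled red, in the overexpression line alone in open red, and equality dashed. PLAT lies far from the dashed line, at 1.51 in the overexpression and 4.32 in the knockdown line.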

How the data were processed

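Reads of 100 nt from QuantSeq 3′ end libraries (75 ng of RNA) were mapped to hg38 and counted per 3′ UTR interval with SLAMdunk by the authors' sequencing service. The deposited tables hold raw counts of reads, multimapped reads, covered T bases and conversions. Each of 71668 intervals held the number of T bases that hg38 has on its strand. Here counts were summed by gene symbol (19041 genes), leaving out 1168 intervals that name several genes. Late and early libraries were tested with edgeR 4.0.16 (filterByExpr, TMM, quasi-likelihood) under R 4.3.3, without pairing, and the lines with an interaction term. CPM is per 3′ UTR read, TMM-scaled over all 34 libraries. Reads carry no molecular identifiers. Label left used genes with at least 1000 covered T bases and a rate at 0 min over 0.2% above background.

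The genes named were the 12 largest rises and falls with at least 10 CPM, at most 10% multimapped reads and 1 direction in both courses and without the 720 min library of course 1, up to 3 called members per list and direction, up to 5 differences between the lines per direction, the other called genes and CCND1. The rule was applied to the 9 libraries, and further list members were named, after their values were seen. The samples and lists were chosen with earlier results of these data known. Alternatives were each library left out, a replicate block, sums per course, single courses and times, RLE and total-count scaling, DESeq2 1.42.0, filters, thresholds and, added after the data were seen, a GC term. The edgeR fits were tested on simulated counts with the same dispersion for all genes and no outlying library, GC effect or course. That setting is simpler than the real libraries, so the test does not show how the fits perform on them. Promoter sequences are from RefSeq. Some list members are not reported here.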

Additional observations from a re-analysis of the deposited data

Results flagged for a closer look

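The late over early change of PLAT, at -3.09 (log2, overexpression minus knockdown), was the one that differed between the lines by an interaction term in edgeR (adjusted p of 2.1e-04). PLAT was above its early range in 3 of 4 late libraries of the overexpression line and in 4 of 4 of the knockdown line.

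In 10 of 142 groups of late or early libraries examined for the genes named, 1 library stood apart from the others of its group. Chance sets 1 apart in about 1 of 20 groups if these are independent, but here all groups reuse the same 10 libraries. HSPG2, GADD45A and GADD45B were also named from the fit without the 720 min library of course 1. That this library stands apart in them follows in part from that choice, so the count is not set against chance. The 720 min library of course 1 was lowest for CIRBP (67.2 CPM), HSPG2 (29.8 CPM) and GADD45B (98.2 CPM) and highest for GADD45A (239.6 CPM). The 720 min library of course 2 was highest among the late ones for SGK1, at 99.9 CPM, and lowest for HMGCS1, at 19.1 CPM. Among the early libraries the 20 min one of course 1 was highest for AMIGO2 (205 CPM) and lowest for PLAU (58.9 CPM) and SQSTM1 (416 CPM), and the 45 min one of course 2 was highest for PHLDA1 (188 CPM).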

How the results depend on the processing

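The 20 genes called in the overexpression line became 6 to 188 with single libraries left out, namely 188 without the 720 min library of course 1, 24 without that of course 2 and 6 to 11 without any of the other 8. Course 1 alone, sums per course and 0 min alone as early called 0 each by edgeR, with 446, 909 and 388 genes at an unadjusted p under 0.05, all with fewer samples. Course 2 alone called 231, 1440 min alone 130, 720 min alone 8, DESeq2 354 and a threshold of 0.01 called 7. A GC term gave 37 calls, 42 with the replicate block and 237 without the 720 min library of course 1. The replicate block gave 18, of which 16 were among the 20, without ITGA6, G0S2, SOX11 and CPED1. The course differences of late and early libraries correlated at 0.381 over 8350 genes, but the labels do not say what a number shares. Total counts, RLE, the filters, the fold and multimapped reads left the count within 1.5 times. The causes were not tested. The knockdown count of 1048 became 656 to 1091 with libraries left out, the 656 without 1440 min of course 2, and 1066 with the replicate block. The difference between the lines was called for 1 gene, PLAT, for 1 to 7 with libraries left out (7 without overexpression 720 min of course 1, 2 without 720 or 1440 min of its course 2) and for 21 by DESeq2.

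Of 519 refits of the 20 genes, 321 kept their call, 198 lost it, and 0 called genes reversed. Medians of fatty acid synthesis ran from 0.06 to 0.57, of sterol synthesis from 0.19 to 0.62, of the chaperones from 0.20 to 0.40 and of the actin list from -0.40 to -0.24. Those of DNA replication (-0.08 to 0.05), YAP and TEAD targets and the interferon response, among others, changed sign between settings. Levels are relative to all 3′ UTR reads, so a change in total RNA per cell is not seen.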
